A study of Mus musculus with 20 samples.

Results

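Nucleolar ribosome biogenesis factors are the proteins that help to transcribe, fold, modify and cut ribosomal RNA and that load ribosomal proteins onto it. A list of 44 mouse genes for such factors was matched by gene symbol to the Affymetrix MOE430A array, which reads each transcript with short probes grouped in probe sets. Probe sets were found for 41 of the 44 genes, and all 41 passed the intensity filter, among 10251 genes tested in the series. The 41 genes had 77 probe sets, of which 75 were tested, among 17193 tested on the array. Dkc1, Wdr3 and Nob1 were not on the array under those symbols and are not analysed here.

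The 5 groups are mouse oocytes and, after them in development, 1-cell, 2-cell and 8-cell embryos and blastocysts. Each group holds 4 arrays, so the series has 20. The labels describe the starting material as total RNA and name 2 rounds of in vitro transcription to amplify it. No strain, allele, agent or age is named for any stage. Neither the number of embryos behind an array nor separate collections are given, so p-values measure only the spread between these arrays, which may be technical. Values are intensities that the authors scaled to an equal trimmed mean of 149.98 to 149.99 on every array, so a level is a share of the signal of its array. A lower value can come from less of that RNA or from more of the other RNAs on the array. Where a sample holds several cell types, it can also come from fewer cells of a type. These cannot be told apart here.

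The sums of marker genes followed the stage labels. The summed intensity of 8 oocyte genes was 182 to 246 on blastocyst arrays and 33122 to 38636 on oocyte arrays, and that of 7 blastocyst genes was 11394 to 13834 on blastocyst arrays and 142 to 190.3 on oocyte arrays. The 4 measured 2-cell activation genes summed to 2607 to 4212 at the 2-cell stage and to 1361 at most at the other stages. Of other cells that could be collected along, 10 cumulus genes summed to 620.3 at most and 7 sperm genes to 248 at most on any array. The 6 oviduct and blood genes reached 3359 on 1 array of the 8-cell stage, at which the oviduct secretion gene Ovgp1 averaged 865 ± 1495 (SD, n = 4). They summed to 348 to 903 on the 2-cell arrays, where Ovgp1 averaged 495 ± 242. On oocyte, 1-cell and blastocyst arrays they summed to 228 at most. RNA composition also differed between stages: the middle probe set of 18S ribosomal RNA read 196 ± 57.6 in oocytes, 12665 ± 1877 in 1-cell embryos, 639 ± 116 in 2-cell embryos, 851 ± 243 in 8-cell embryos and 535 ± 142 in blastocysts. The oocyte and 1-cell arrays stood apart, while the arrays of the 2-cell, 8-cell and blastocyst stages overlapped. The ratio of the 3′ to the 5′ probe set of Gapdh, which grows as RNA is shortened, was 4.70 ± 1.26, 4.76 ± 1.08, 5.43 ± 0.60, 1.28 ± 0.47 and 5.81 ± 1.96 from oocyte to blastocyst (SD, n = 4 each), so it was lowest at the 8-cell stage. The same ratio of actin was 4.74 ± 0.36, 4.24 ± 1.20, 4.63 ± 0.62, 3.67 ± 0.23 and 1.99 ± 0.33 in that order, so it was lowest in blastocysts. The part of these differences in the results was not tested.

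Ribosomal RNA is transcribed by RNA polymerase I as a long precursor, which is modified by small nucleolar ribonucleoproteins (snoRNPs), cut, and folded first in the small subunit processome and then in separate small and large subunit precursors. Fully grown mouse oocytes largely shut this transcription down, and it starts again in the early embryo, when compact nucleolus precursor bodies turn into working nucleoli. The messenger RNA of the factors can therefore be stored from the oocyte or made anew by the embryo, and an array at these stages reads both together.

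Promoter windows of RefSeq on the GRCm38.p6 build, from 250 bases before to 50 bases after each gene's start, matched 34 of the 41 genes and 9888 genes of the array. The ETS core CCGGAAG, searched with its reverse complement CTTCCGG, was in 12 of the 34 windows (35.3%) and in 15.02% of the windows of genes on the array. The E-box CACGTG, which reads alike on both strands, was in 8 of 34 (23.5%) and in 9.32%. The GC box GGGCGG was in 26 (76.5%) and in 57.5%, the TATA box TATAAA in 2 (5.88%) and in 10.1%, and the CGCG element CTCGCGAG in 1 (2.94%) and in 1.67%, each on both strands. None of these 5 strings contains another. Of the 25 matched genes with their highest mean at the 8-cell stage, 10 held the ETS core and 4 the E-box, and of the 9 others 2 and 4 did. A match is a string of letters, not a bound site, and these shares were not tested.

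Below are the 250 bases before the start of 4 genes whose levels are described further on, with the ETS core and the E-box in capitals and the rest in lower case. Nop2 held both strings, the E-box starting 60 bases and the ETS core 38 bases before the start. In Nhp2 and Nolc1, which had their highest mean at the 8-cell stage on the deposited scale, the ETS core started 23 and 14 bases before the start. Emg1, which was highest in the oocyte, is shown as a contrast: it held the ETS core 2 times, 120 and 44 bases before the start, so the string was not limited to genes with an 8-cell peak.
Nop2, chr6:125131633-125131882, plus strand: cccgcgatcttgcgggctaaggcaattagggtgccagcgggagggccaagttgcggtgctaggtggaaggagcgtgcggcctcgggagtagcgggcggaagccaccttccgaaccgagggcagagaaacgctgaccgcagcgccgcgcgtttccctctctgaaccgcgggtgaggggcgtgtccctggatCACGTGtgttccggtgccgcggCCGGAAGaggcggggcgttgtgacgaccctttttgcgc
Nhp2, chr11:51619523-51619772, plus strand: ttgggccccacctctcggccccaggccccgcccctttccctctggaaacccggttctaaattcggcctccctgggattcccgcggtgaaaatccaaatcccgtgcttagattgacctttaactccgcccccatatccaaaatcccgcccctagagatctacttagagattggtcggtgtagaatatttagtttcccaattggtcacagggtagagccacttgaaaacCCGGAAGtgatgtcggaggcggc
Nolc1, chr19:46075597-46075846, plus strand: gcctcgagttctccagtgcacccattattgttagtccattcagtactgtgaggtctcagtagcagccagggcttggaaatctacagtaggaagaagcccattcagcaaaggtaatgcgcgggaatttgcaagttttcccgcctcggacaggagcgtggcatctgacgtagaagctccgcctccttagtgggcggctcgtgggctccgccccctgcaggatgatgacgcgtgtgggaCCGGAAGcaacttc
Emg1, chr6:124712179-124712428, minus strand: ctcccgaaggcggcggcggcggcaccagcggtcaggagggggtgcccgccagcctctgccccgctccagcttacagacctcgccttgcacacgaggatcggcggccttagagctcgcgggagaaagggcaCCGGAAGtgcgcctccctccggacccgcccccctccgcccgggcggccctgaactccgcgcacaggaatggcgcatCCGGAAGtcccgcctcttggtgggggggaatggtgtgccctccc

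Over the 5 stages, on the deposited scale, the mean of a factor was most often lowest at the 1-cell stage and highest at the 8-cell stage. The highest stage mean fell at the 8-cell stage for 28 of 41 factors (68.3%), against 25.7% of all genes tested, but for only 4 of 41 (9.76%, against 1.81% of genes) when arrays were scaled to their added hybridization controls. On the deposited scale 6 factors had their highest mean in the oocyte and 5 at the 2-cell stage. These shares of 14.6% and 12.2% were near the 16.2% and 14.9% of all genes. At the 1-cell stage it was 2 (4.88%, against 25.7% of all genes) and in the blastocyst 0, against 17.6%. Under hybridization-control scaling, however, the blastocyst held the highest mean of 17 factors (41.5%, against 27.9% of genes) and the oocyte that of 14 (34.1%, against 59.5%). Median centring gave 6 in the blastocyst (14.6%, against 22.6%). The stage of the lowest mean was found on the deposited scale only. The lowest mean fell at the 1-cell stage for 23 of 41 (56.1%), against 18.9% of all genes. The oocyte followed with 10 (24.4%, against 17.1% of all genes), the blastocyst with 5 (12.2%, against 34.4%) and the 2-cell stage with 3 (7.32%, against 12.8%).

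**Figure D1:**
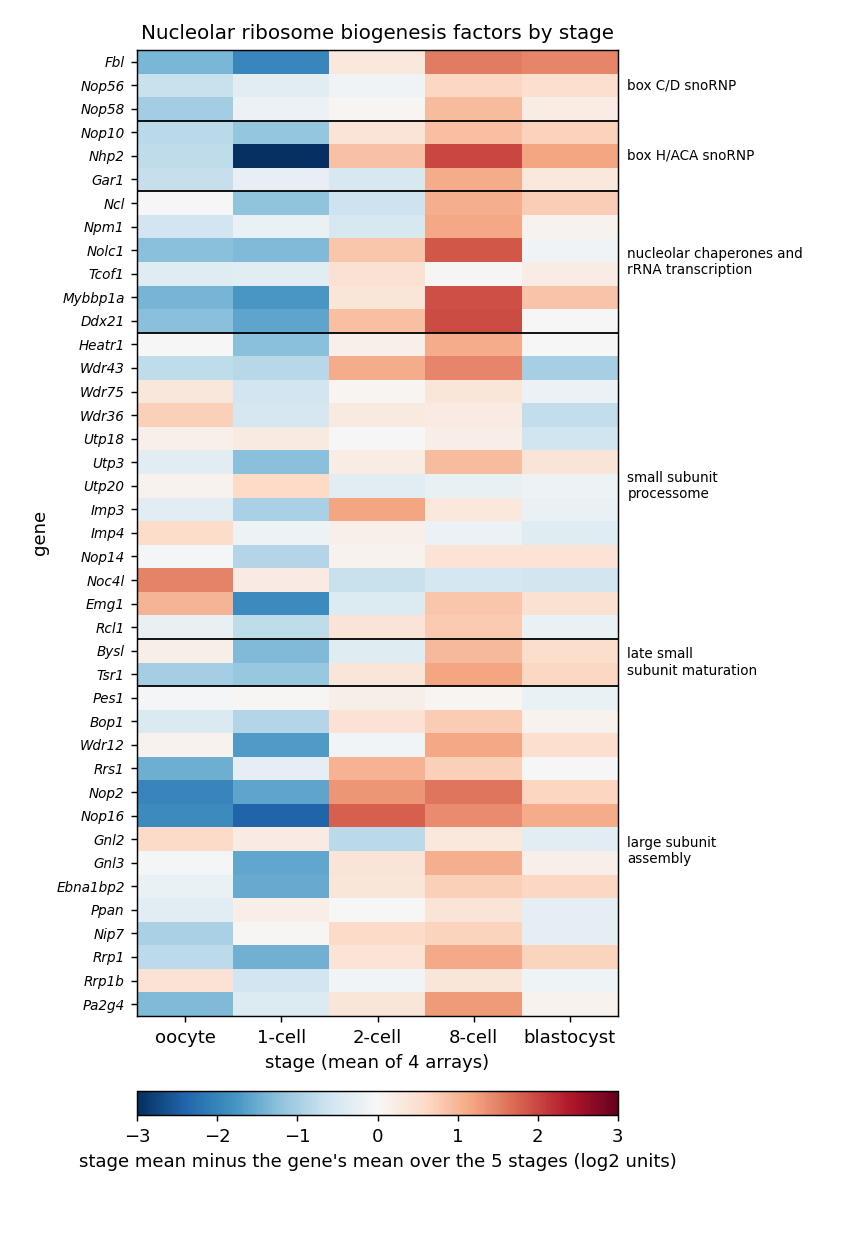
Stage means of the 41 factors (rows, grouped by role) at the 5 stages (columns, mean of 4 arrays), as the difference from each gene's mean over the stages in log2 units. Red cells gather in the 8-cell column and blue cells in the 1-cell column, while Noc4l, Emg1, Wdr36 and Imp4 are highest in the oocyte; the 8-cell column loses its lead when arrays are scaled to their hybridization controls.

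**Figure D2:**
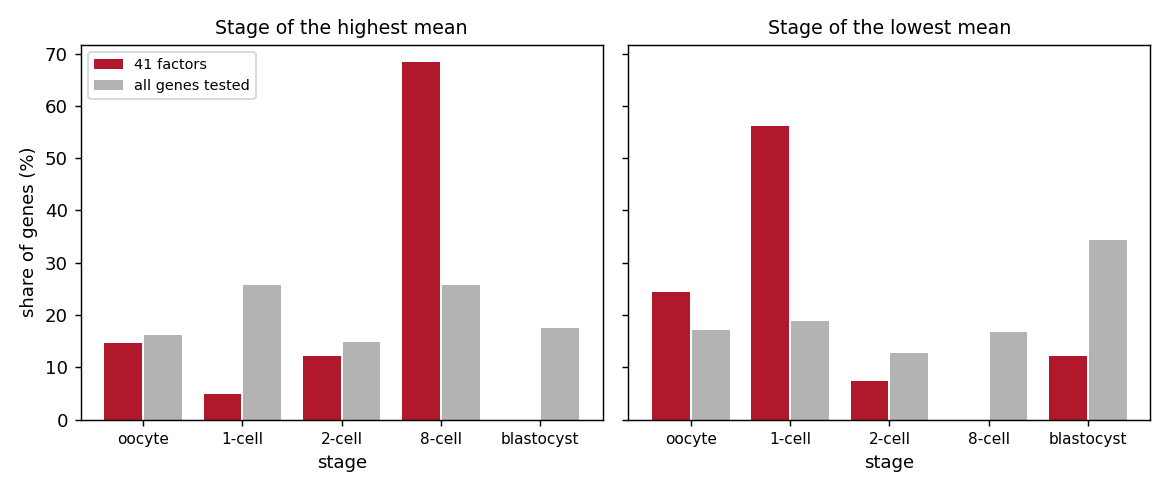
Share of genes (%, linear axis from 0) whose highest (left) or lowest (right) stage mean falls at each stage, for the 41 factors (red) and for all 10251 genes tested (grey). On the deposited scale the 8-cell stage holds the highest mean of 68.3% of the factors and the 1-cell stage the lowest mean of 56.1%. Under hybridization-control scaling, not drawn here, the 8-cell stage holds the highest mean of 9.76% and the blastocyst that of 41.5%.

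Each later stage was set against the one before it with limma, and a gene was called at a Benjamini-Hochberg adjusted p under 0.05. Changes are log2 differences with moderated standard errors (SE), and they understate the change of dim genes because a constant of 12.15 was added to each intensity. In 1-cell embryos against oocytes 5 factors were higher and 19 lower, against 15.3% and 16.6% of all genes tested, with a median change of -0.44 beside 0.09 for all genes. Scaling to the hybridization controls gave 0 higher and 32 lower there, against 10 and 6036 of all 10251 genes, with medians of -1.44 and -0.92. In 2-cell against 1-cell embryos 29 were higher and 3 lower, against 22% and 22.7%, with medians of 1.13 and -0.07.

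The next 2 transitions also depended on how arrays were scaled. In 8-cell against 2-cell embryos 22 factors were higher and 2 lower on the deposited scale, against 22.2% and 25.7% of all genes, with medians of 0.52 and 0.04. Scaling to the hybridization controls gave 5 and 5, against 750 and 3593 of all 10251 genes, and turned the medians to -0.03 and -0.51. In blastocysts against 8-cell embryos 0 factors were higher and 25 lower, against 20% and 26.4% of genes, with medians of -0.64 and -0.22. Under the hybridization controls 12 were higher and 3 lower, against 5465 and 164 of all 10251 genes, with medians of 0.44 and 0.86. Centring on the array median gave 0 higher and 14 lower, against 2541 and 1522 genes. In blastocysts against oocytes 22 were higher and 8 lower, against 26.2% and 33.6%, with medians of 0.59 and -0.20. Consecutive transitions share the arrays of the stage between them, so a low or high stage enters both. Called factors whose 2 stages did not overlap numbered 24, 31, 21, 22 and 29 of 41 in the order of the comparisons. Among all 10251 genes these were 2778, 3899, 4096, 3600 and 5429. Most factors with arrays printed below were chosen by a rule that required no overlap, so its mention there is not further support.

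**Figure D3:**
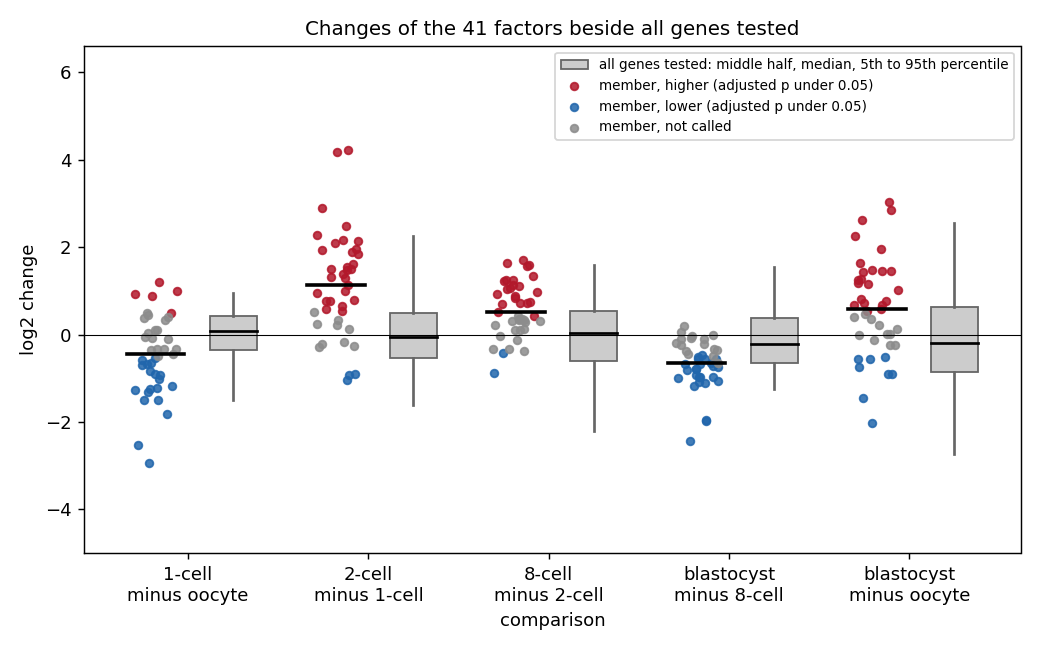
Log2 change of each of the 41 factors (points, with their median as a bar) beside all 10251 genes tested (boxes, 5th to 95th percentile as whiskers) in 5 comparisons of a later with an earlier stage. Most points lie above the box median in 2-cell minus 1-cell and in 8-cell minus 2-cell and below it in blastocyst minus 8-cell; the last 2 of these change direction against zero under hybridization-control scaling.

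Hybridization controls are RNAs that are usually added to each array in fixed amounts, and scaling to them moved all genes together. The median change of all genes then became -0.92 in 1-cell against oocyte, 0.14 in 2-cell against 1-cell, -0.51 in 8-cell against 2-cell, 0.86 in blastocyst against 8-cell and -0.46 in blastocyst against oocyte. This scaling shifts every gene by the same amount in a comparison, so the factors' median minus that of all genes is the same on both scales by construction, at -0.53, 1.19, 0.48, -0.43 and 0.79 in the same order. Among all called genes the share of higher calls changed with it, to 0.165%, 64.0%, 17.3%, 97.1% and 33.4% under the hybridization controls, against 47.9%, 49.2%, 46.3%, 43.1% and 43.8% on the deposited scale. Centring on the array median gave 62.5% in blastocyst against 8-cell. The controls averaged 9.19, 10.19, 9.98, 10.53 and 9.45 on the log2 scale from oocyte to blastocyst.

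**Figure D4:**
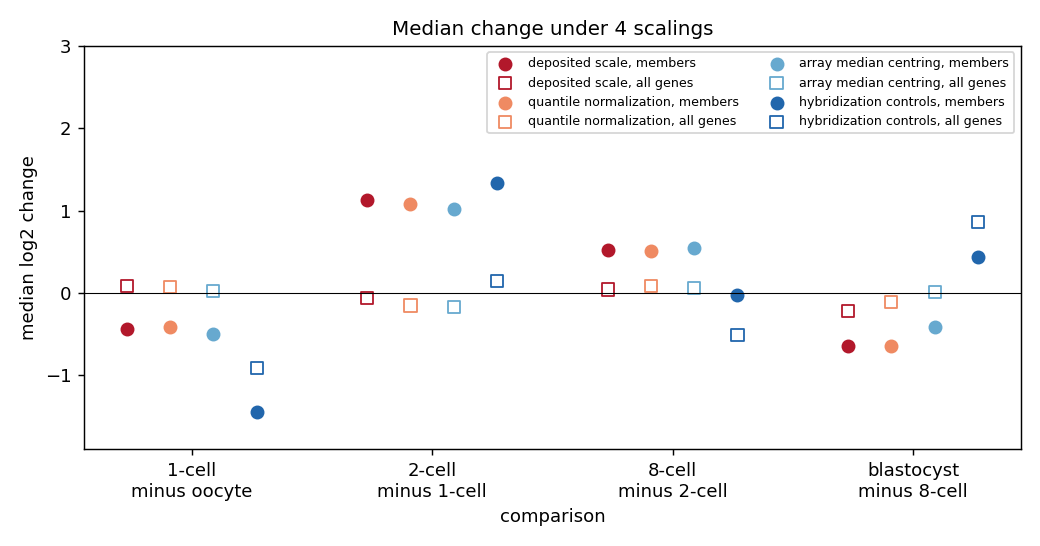
Median log2 change of the 41 factors (filled circles) and of all genes tested (open squares) at the 4 transitions under 4 scalings. The factors stay below all genes in 1-cell minus oocyte, above them in 2-cell minus 1-cell and 8-cell minus 2-cell and below them in blastocyst minus 8-cell, while under the hybridization controls (dark blue) both shift by the same amount, as that scaling must, and the factors turn to -0.03 and 0.44 in the last 2.

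The 6 measured snoRNP core proteins were all called higher in blastocysts against oocytes, against 26.2% of all genes tested. The 3 listed box C/D proteins belong to the particles for ribose methylation of ribosomal RNA. The 3 measured box H/ACA proteins belong to those for pseudouridylation, and Dkc1, also listed there, was not measured. Both sets of 3 were also higher in 8-cell against 2-cell embryos on the deposited scale, against 22.2% of all genes. Only Gar1 of the 6 stayed called under hybridization-control scaling. Fbl then came to 0.67, Nop56 to 0.17, Nop58 to 0.33 and Nhp2 to 0.59 (adjusted p of 0.0695, 0.698, 0.393 and 0.0852 in that order), and Nop10 turned to -0.03. Nop10 also turned to -0.08 under quantile normalization.

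Fbl encodes fibrillarin, the methyltransferase of the box C/D particle. Its intensity on the 4 arrays of each stage was 187, 124, 135 and 167 in oocytes, 99.7, 81.7, 106 and 103 in 1-cell embryos, 422, 507, 598 and 562 in 2-cell embryos, 1088, 1176, 976 and 1818 in 8-cell embryos, and 944, 931, 1874 and 1075 in blastocysts. Every array from the 2-cell stage on lay above every oocyte and 1-cell array, and 1 array stood above the others in both late stages. The change was 2.28 ± 0.21 in 2-cell against 1-cell embryos (adjusted p = 5.87e-10) and 2.84 ± 0.21 in blastocysts against oocytes (adjusted p = 3.67e-12). Nop58, a scaffold protein of the same particle, differed in being higher already in 1-cell embryos against oocytes, by 0.88 ± 0.18 (adjusted p = 0.00043), which turned to -0.12 under hybridization-control scaling. Nop56, its partner, depended on the probe set: the one that stands for the gene changed by 0.23 in 2-cell against 1-cell embryos, with no call, and the second by 2.38 (adjusted p = 4.69e-08).

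Nhp2, a core protein of the box H/ACA particle that also binds telomerase RNA, had the widest range of stage means of the 41, 5.31 log2 units. It read 562, 592, 602 and 643 in oocytes, 72.1, 70.8, 101 and 143 in 1-cell embryos, 1579, 1518, 2480.1 and 2114 in 2-cell embryos, 4402, 4806, 3462 and 4124 in 8-cell embryos, and 2487, 2019.7, 2892 and 2132 in blastocysts. The 1-cell arrays were the lowest and the 8-cell arrays the highest, with no overlap between either and any other stage. It fell by 2.54 in 1-cell embryos against oocytes (SE 0.19, adjusted p = 3.99e-11) and was 4.17 ± 0.19 higher in 2-cell against 1-cell embryos (adjusted p = 3.39e-16). Its second probe set went the same way, with changes of -2.02 and 3.14. Gar1 and Nop10, the other 2 measured core proteins, were not called in 1-cell embryos against oocytes, at 0.46 and -0.36. Gar1 was 1.57 ± 0.18 higher in 8-cell against 2-cell embryos (adjusted p = 3.6e-08).

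The 6 nucleolar chaperones and factors of ribosomal RNA transcription were all higher in blastocysts against oocytes on the deposited scale, against 26.2% of all genes. On that scale 5 of 6 had their highest mean at the 8-cell stage, against 25.7% of all genes. Under hybridization-control scaling Ncl at 0.50, Npm1 at 0.41 and Tcof1 at 0.33 were no longer called in blastocysts against oocytes (adjusted p of 0.125, 0.148 and 0.425 in that order), and Npm1 was not called under quantile normalization either, at 0.26. With the mean of its probe sets Tcof1 came to 0.37 without a call. Ncl encodes nucleolin, an abundant RNA-binding chaperone. It read 4024, 4776, 4298 and 4772 in 8-cell embryos, against 1179, 1229.8, 1627 and 1411 in 2-cell embryos. No 8-cell array came near a 2-cell one. Among the probe sets that stand for the 41 genes, the change of 1.71 ± 0.20 (adjusted p = 3.5e-08) was the largest at this transition. The second probe set of Ddx21 rose by more, 3.43 (adjusted p = 3.02e-13). The 4 Ncl probe sets all went up there, by 1.48 to 2.69, but disagreed in 2-cell against 1-cell embryos. In that comparison one was called lower at -0.82 and the one that stands for the gene higher at 0.58. That higher call was lost under median centring, with the mean of probe sets, with only these 2 stages fitted and without any 1 of 3 arrays, and it came to 0.33 without the first 1-cell array.

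Npm1 encodes nucleophosmin, a histone and ribosome chaperone. It read 2888, 4127, 3034 and 3272 in oocytes, 4321, 4931, 4589 and 3566 in 1-cell embryos, 3458, 3462, 4249 and 3079 in 2-cell embryos, 10606, 12302, 11159 and 10098 in 8-cell embryos, and 4730.0, 6920.1, 5575 and 4258 in blastocysts. The first 3 stages overlapped, the 8-cell arrays stood apart above them, and the blastocyst arrays overlapped the 1-cell arrays. The change was 1.63 ± 0.17 in 8-cell against 2-cell embryos (adjusted p = 3.07e-09) and -1.06 ± 0.17 in blastocysts against 8-cell embryos (adjusted p = 8.95e-06), the second of which turned to 0.02 under hybridization-control scaling.

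Mybbp1a, a Myb-binding nucleolar protein that acts on RNA polymerase I transcription, was low in the first stages. It read 110.2, 81.2, 123 and 85.4 in oocytes, 93.9, 46, 70 and 104 in 1-cell embryos, 271, 319, 528 and 369 in 2-cell embryos, 1048, 1029, 1249.6 and 1119.5 in 8-cell embryos, and 611, 532, 443 and 479.7 in blastocysts. Oocyte and 1-cell arrays overlapped, and all later arrays lay above them. It rose by 2.09 ± 0.21 in 2-cell against 1-cell embryos (adjusted p = 2.83e-09) and by 1.59 ± 0.21 in 8-cell against 2-cell embryos (adjusted p = 3.52e-07).

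Nolc1, a chaperone that carries snoRNPs through the nucleolus, and Ddx21, a nucleolar RNA helicase, had their highest mean at the 8-cell stage on the deposited scale. In 8-cell against 2-cell embryos they were higher by 1.04 and 1.06 (adjusted p of 0.00023 and 0.000302). Under hybridization-control scaling these came to 0.49 and 0.50 without a call (adjusted p of 0.19 and 0.214). Other Nolc1 probe sets gave 0.43 without a call and 1.96 with one, and the second of Ddx21 gave 3.43. Nolc1 read 476, 469, 583 and 438 in blastocysts, against 1754, 1657, 1799.8 and 2786 in 8-cell embryos. Ddx21 read 294, 289, 247 and 293 in blastocysts, against 906, 937, 1070.4 and 1739 in 8-cell embryos. Neither gene overlapped between these stages, and the fourth 8-cell array was the highest of both. Nolc1 fell by 1.97 (SE 0.22, adjusted p = 4.16e-08) and Ddx21 fell by 1.96 (SE 0.23, adjusted p = 8.96e-08). Without the fourth 8-cell array Nolc1 fell by 1.80 and Ddx21 fell by 1.75.

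Tcof1 encodes treacle, which holds RNA polymerase I at the ribosomal genes and is mutated in Treacher Collins syndrome in humans. It read 88.8, 116, 86.1 and 81.8 in 8-cell embryos, against 129, 118, 139.5 and 130.1 in 2-cell embryos. The 4 values of each stage did not overlap, and it was the only chaperone called lower at this transition, at -0.43 ± 0.18 (adjusted p = 0.0449). The call was lost under 6 other settings and without any 1 of 10 arrays, with adjusted p of 0.0506 to 0.0986 when 1 of these arrays was left out.

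**Figure D5:**
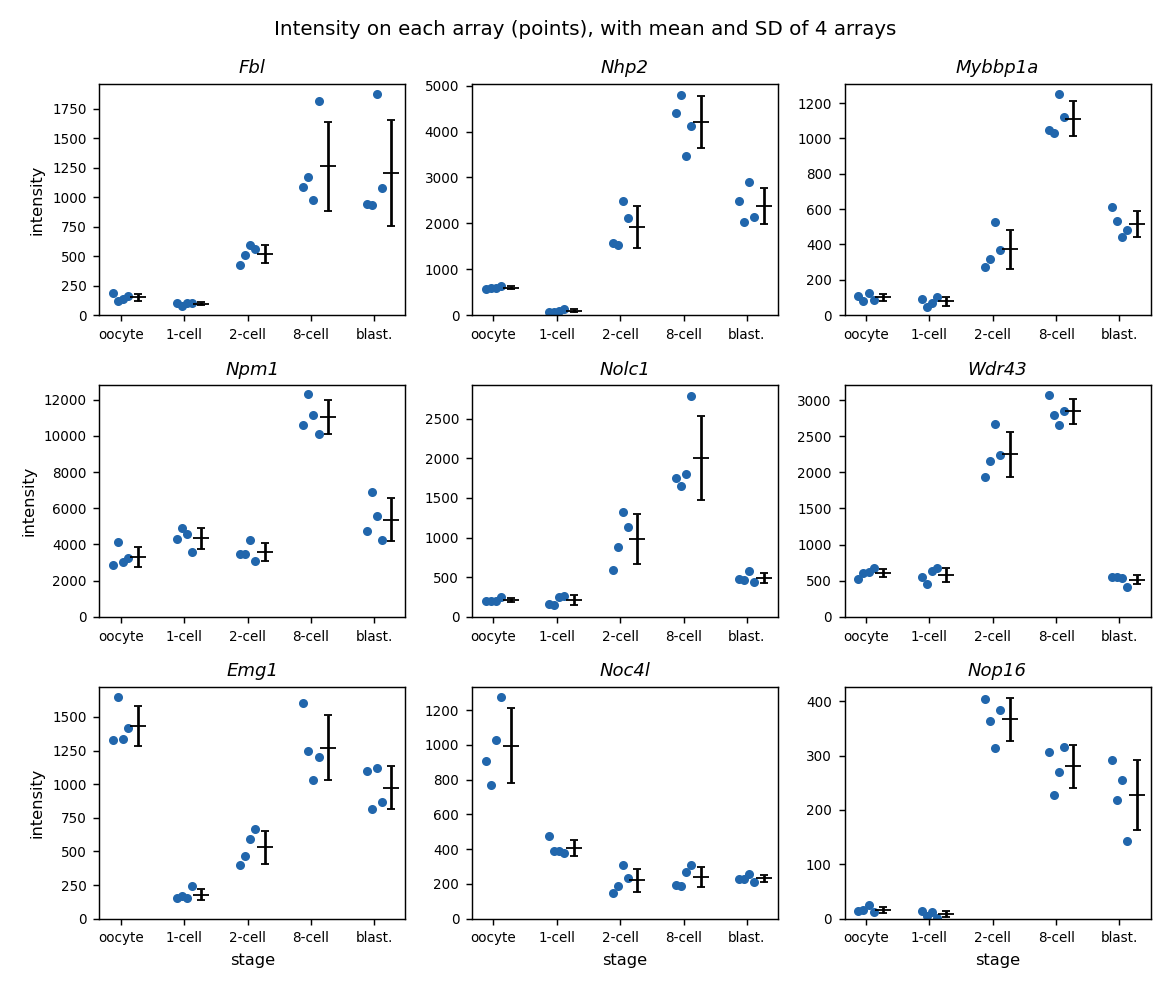
Intensity on each of the 20 arrays (points, linear axes from 0 that differ between panels) with the mean and SD of 4 arrays beside them, for 9 factors over the 5 stages. Npm1, Nolc1 and Mybbp1a peak at the 8-cell stage on the deposited scale, Wdr43 is high at the 2-cell and 8-cell stages only, Nop16 is close to 0 before the 2-cell stage, Emg1 drops at the 1-cell stage, and Noc4l is highest in the oocyte.

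The small subunit processome, the large particle that folds and cuts the 18S part of the precursor around the U3 snoRNA, had members called in both directions at several transitions. Of its 13 measured factors, 10 were lower and 1 higher in 1-cell embryos against oocytes, against 16.6% and 15.3% of all genes. In 2-cell against 1-cell embryos 9 were higher and 2 lower, against 22% and 22.7% of all genes. In blastocysts against oocytes 1 was higher (Utp3, by 0.73, and 0.46 without a call under hybridization-control scaling) and 6 were lower, against 26.2% and 33.6%. The median change in that comparison was -0.24, beside 0.60 for the 14 large subunit factors and -0.20 for all genes, and the difference between these groups was not tested.

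Emg1, the methyltransferase of a pseudouridine in 18S ribosomal RNA, dropped the most of the 41 in 1-cell embryos. It read 154, 169, 155 and 241 in 1-cell embryos, against 1328, 1646, 1333 and 1415 in oocytes. The stages were far apart, and it fell by 2.93 (SE 0.18, adjusted p = 1.07e-12). From the 2-cell stage it came back, with 401, 463, 594 and 670.2 in 2-cell embryos, 1602, 1251, 1028 and 1205 in 8-cell embryos and 1099.7, 812, 1120.3 and 869 in blastocysts. The 8-cell arrays overlapped the oocyte arrays, and blastocysts were 0.56 lower than oocytes (adjusted p = 0.0105), a call that median centring ended (adjusted p = 0.0512).

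Noc4l, whose yeast counterpart pairs with Nop14 in export of the small subunit, fell at the first 2 transitions. It read 905, 770.4, 1028 and 1275 in oocytes, 478, 389, 389.7 and 379 in 1-cell embryos, 151, 188, 309 and 233 in 2-cell embryos, 193, 190.1, 268 and 310.1 in 8-cell embryos, and 228, 227, 259 and 213 in blastocysts. Oocyte arrays lay above all others, and the last 3 stages overlapped. It fell by 2.03 in blastocysts against oocytes (SE 0.20, adjusted p = 1.03e-09), and its other 2 probe sets by 1.74 and 1.44. Nop14 itself went another way, at 0.46 ± 0.21 with no call (adjusted p = 0.0589).

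Wdr36, a WD-repeat protein of the processome, read 213, 201, 247 and 213 in blastocysts, against 555, 587, 645 and 708 in oocytes. The stages did not overlap, and it fell by 1.46 (SE 0.20, adjusted p = 3.59e-07). Imp4, which binds U3 snoRNA with Imp3, was likewise lower in blastocysts against oocytes, at -0.91 ± 0.16 (adjusted p = 2.31e-05).

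Wdr43, a member of the subcomplex that loads early on the precursor, was high at the 2-cell and 8-cell stages. It read 529.7, 602, 620.0 and 673 in oocytes, 556, 452, 634 and 675 in 1-cell embryos, 1934, 2154, 2671 and 2243 in 2-cell embryos, 3069.5, 2788, 2654 and 2854 in 8-cell embryos, and 546, 554, 539 and 421 in blastocysts. The blastocyst arrays were back within the range of the first 2 stages or below it. It fell by 2.44 in blastocysts against 8-cell embryos (SE 0.15, adjusted p = 1.18e-12), the largest fall of the 41 at that transition. Its second probe set fell by 1.20 there, but changed by 0.15 in 2-cell against 1-cell embryos, where the one that stands for the gene rose by 1.94. Wdr75 and Heatr1, of the same early subcomplex, were called higher in 2-cell against 1-cell embryos at 0.65 and 1.39.

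Imp3 was the processome factor called lower in 8-cell against 2-cell embryos, and Utp20 was, with Noc4l, one of 2 called lower in 2-cell against 1-cell embryos. Imp3, a U3-associated protein, read 405, 471, 325 and 306 in 8-cell embryos, against 753, 737, 631 and 653 in 2-cell embryos. These values did not overlap, and the change was -0.88 ± 0.17 (adjusted p = 0.00012). Utp20, a large scaffold protein, read 223, 242, 265 and 208 in 2-cell embryos, against 429, 462, 502 and 417 in 1-cell embryos. It fell by 0.91 there (SE 0.18, adjusted p = 0.000143) with no overlap, and the adjusted p was 0.0748 for Utp20 and 0.0733 for Noc4l under hybridization-control scaling. Utp20 was also the processome factor called higher in 1-cell embryos against oocytes, at 0.49 (adjusted p = 0.0405), but -0.51 without a call under that scaling. That call was also lost under median centring, without the intensity trend and without any 1 of 6 arrays, with 0.39 without the second oocyte array.

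The late small subunit factors are Bysl, which stays on the precursor until it leaves the nucleus, and Tsr1, a GTPase-like protein of the same late particle. Both were higher in 2-cell against 1-cell and in 8-cell against 2-cell embryos, against 22% and 22.2% of all genes. Under hybridization-control scaling neither stayed called in 8-cell against 2-cell embryos, with Bysl at 0.79 (adjusted p = 0.0534) and Tsr1 at 0.28 (adjusted p = 0.555). Tsr1 read 49.6, 42.9, 29 and 41.6 in oocytes, 30.1, 41.6, 30 and 45.3 in 1-cell embryos, 90.8, 143, 128 and 141 in 2-cell embryos, 196, 216, 175 and 374 in 8-cell embryos, and 117, 134, 183 and 180.4 in blastocysts. The first 2 stages overlapped near the intensity filter of 33, and all later arrays lay above them. It rose by 1.49 ± 0.23 in 2-cell against 1-cell embryos (adjusted p = 3.6e-06). In 8-cell against 2-cell embryos its change was 0.83 ± 0.23, and 0.60 without the fourth 8-cell array. That array was also the highest of its stage for Fbl and Bysl.

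Of the 14 measured large subunit assembly factors, 10 were higher and 1 lower in 2-cell against 1-cell embryos, against 22% and 22.7% of all genes, with a median of 1.31. Nop16, in yeast a component of the large subunit precursor, read 404, 364, 314 and 385 in 2-cell embryos, against 14.9, 5.6, 13.2 and 1.9 in 1-cell embryos. All 4 of the 1-cell arrays lay below the filter of 33, so the size of the change depends on the added constant: it was 4.21 ± 0.23 (adjusted p = 1.31e-14), 5.12 with a constant of 3.04 and 2.85 with one of 48.6. In blastocysts it read 293, 218, 255 and 142, against 14.8, 16, 24.6 and 11.7 in oocytes. Blastocyst arrays were all higher, by 3.02 ± 0.23 (adjusted p = 6.03e-12).

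Nop2, a cytosine methyltransferase of the large subunit RNA, followed it. It read 197, 274, 311 and 329.6 in 2-cell embryos, against 23.6, 68.6, 9.4 and 22.9 in 1-cell embryos. In blastocysts it read 134, 193, 158 and 185, against 55.6, 11.9, 10 and 7.7 in oocytes. Neither pair overlapped, and the changes were 2.89 ± 0.33 (adjusted p = 2.26e-08) and 2.61 ± 0.33 (adjusted p = 7.84e-08). Like Nop16 it was mostly below the filter in the 2 early stages.

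Pes1, Bop1 and Wdr12 form one complex of the large subunit precursor, and their values are set side by side here. Wdr12 read 12.2, 9.5, 51.4 and 84.4 in 1-cell embryos, against 141, 152, 134 and 125 in oocytes. The 1-cell arrays spread widely but all lay below the oocyte arrays. It fell by 1.82 (SE 0.31, adjusted p = 3.88e-05), and Wdr12 gave -2.19 with the smaller and -1.17 with the larger constant. Bop1 changed by -0.44 in the same comparison, with no call (adjusted p = 0.0863), and was 1.29 ± 0.19 higher in 2-cell against 1-cell embryos (adjusted p = 2.45e-06). The probe set that stands for Pes1 was called in 0 of the 5 comparisons, with changes between -0.24 and 0.13 and single arrays between 199 and 483. Its second and much dimmer probe set, with a mean intensity of 34.7, was called higher in 8-cell against 2-cell embryos at 1.11 (adjusted p = 0.00524) and in blastocysts against oocytes at 1.42 (adjusted p = 0.000395).

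Rrs1, Nip7 and Pa2g4 were higher in 1-cell embryos against oocytes, where 19 of the 41 factors were lower, but Pa2g4 turned to -0.07 and Nip7 came to 0.00 under hybridization-control scaling. Rrs1, which helps to dock the 5S ribonucleoprotein on the large subunit precursor, read 194, 265, 228 and 238 in 1-cell embryos, against 179, 68.6, 58.4 and 103 in oocytes. The change was 1.20 ± 0.22 (adjusted p = 8.6e-05), and 0.19 (adjusted p = 0.606) with the hybridization controls. Nip7, needed for processing of the precursor in human cells, read 699, 799, 827 and 523 in 1-cell embryos, against 416, 355, 273 and 344 in oocytes. It was 1.01 ± 0.18 higher (adjusted p = 0.000102). Pa2g4, a growth-linked protein that binds ribosomes, read 689, 548, 587 and 482 in 1-cell embryos, against 361, 379, 232 and 233 in oocytes. These 3 genes did not overlap between the stages, which the rule that picked them required. Pa2g4 was 0.93 ± 0.25 higher (adjusted p = 0.00489), although another of its 5 probe sets was called lower at -1.11.

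Gnl2, a GTPase of late nucleolar large subunit assembly, was the large subunit factor called lower in 2-cell embryos. It read 99.6, 146, 284 and 182 in 2-cell embryos, against 389.7, 310.1, 352 and 382 in 1-cell embryos. The change was -1.05 ± 0.21 (adjusted p = 0.000171), with no overlap, while its second probe set changed by 0.54 with no call (adjusted p = 0.0574). Another, dimmer one with a mean intensity of 43.9 changed by 0.31 with no call (adjusted p = 0.308). The mean of all its tested probe sets came to -0.07 with no call. In blastocysts it read 266, 267, 224 and 192, against 433, 384, 434 and 585 in oocytes, a change of -0.91 ± 0.21 (adjusted p = 0.000559). Gnl3, nucleostemin, a related GTPase of stem and dividing cells, was 1.95 ± 0.21 higher in 2-cell against 1-cell embryos (adjusted p = 1.48e-08) and not called in blastocysts against oocytes, at 0.22. Ebna1bp2 and Rrp1 rose by 1.88 and 1.85 in 2-cell against 1-cell embryos.

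Probe sets of a gene did not always share a call. Of the 24 factors with several tested probe sets, all probe sets carried the same call in 9 cases in 1-cell against oocyte, 11 in 2-cell against 1-cell, 16 in 8-cell against 2-cell, 12 in blastocyst against 8-cell and 13 in blastocyst against oocyte. Opposite calls were found for Heatr1, Pa2g4 and Rrp1b in the first of these and for Ncl and Rrp1b in the second. Rrp1b, a relative of Rrp1, was called lower by the probe set that stands for it, at -1.01, and higher by another, at 1.13, in 1-cell embryos against oocytes. In 2-cell against 1-cell embryos that other probe set was called lower at -1.76 and another one of Rrp1b higher at 0.88.

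Other genes of the pathway, 82 tested in 4 lists, were counted in the same way on the deposited scale. Of the 82, 5 were higher and 40 lower in 1-cell against oocyte (15.3% and 16.6% of all genes), and 56 higher and 10 lower in 2-cell against 1-cell (22% and 22.7%), with medians of -0.56 and 1.11. In 8-cell against 2-cell 21 were higher, a share of 25.6% near the 22.2% of all genes, and 13 lower, against 25.7%, with a median of 0.15. In blastocyst against 8-cell 1 was higher and 48 lower (20% and 26.4% of all genes), with a median of -0.58. In blastocyst against oocyte 34 were higher and 25 lower (26.2% and 33.6%). The difference between these lists and the factors was not tested. Among 11 RNA polymerase I genes, the subunit Polr1c was 4.91 ± 0.20 higher in 2-cell against 1-cell embryos (adjusted p = 3.92e-17) and Taf1a, a subunit of the selectivity factor that recruits the polymerase, fell by 4.32 in blastocysts against oocytes (SE 0.24, adjusted p = 7.1e-15).

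Within the same lists single genes lay far from the median of their list. Among 12 exosome genes, which trim ribosomal RNA precursors, C1d was 5.16 ± 0.18 higher in 2-cell against 1-cell embryos (adjusted p = 2.2e-18), while Mphosph6 fell by 3.18 in 8-cell against 2-cell embryos (SE 0.21, adjusted p = 9.54e-13). Of 27 other small subunit factors, the U3 snoRNP protein Rrp9 was 3.83 ± 0.29 higher in 2-cell against 1-cell embryos (adjusted p = 1.06e-11) and fell by 2.97 in 8-cell against 2-cell embryos (SE 0.29, adjusted p = 1.51e-09). Riok1, a kinase of late small subunit maturation, differed from the median of its list in being 1.42 ± 0.19 higher in 1-cell embryos against oocytes (adjusted p = 1.82e-06), and it fell by 3.21 in 2-cell against 1-cell embryos (SE 0.19, adjusted p = 1.18e-13). Among 32 other large subunit factors, Wdr74 was 4.09 ± 0.27 higher in 2-cell against 1-cell embryos (adjusted p = 5.38e-13) and Rpf2 fell by 2.76 in 1-cell embryos against oocytes (SE 0.16, adjusted p = 3.61e-13).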

How the data were processed

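Expression of 20 samples, 4 for each of 5 stages given in the titles, was deposited as linear probe-set intensity, which the authors scaled to an equal trimmed mean (2% trimmed at each end, from the values); no source used here gives the software, the background step or detection calls. Intensities were used as log2(value + 12.15), the constant being the pooled median of 48.6 divided by 4, without further normalization. Tested probe sets exceeded 33, the 40th percentile of all values, on 4 or more arrays. A single model over the 5 stages (limma 3.58.1, R 4.3.3; lmFit, eBayes with trend, 15 residual degrees of freedom) was fitted and checked on simulated data. P-values were adjusted over all 17193 probe sets within a comparison, two-sided, at 0.05. Each gene was represented by its tested probe set of highest mean log2 value. Array number limits the precision.

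Titles number arrays 1 to 4 in each stage. Same-numbered arrays deviated together with a mean correlation of 0.0126 (-0.161 to 0.178), against -0.0042 for others, so no block was used.

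Members, role groups, pathway and marker lists were chosen with earlier results of these data known. Arrays are given for up to 3 called members per direction and comparison with the largest change and no overlap, and for the member of widest range in each role group. From each pathway list the called genes of largest change are named, in part. Promoter windows are RefSeq's, the first listed per gene. Other settings were quantile normalization, median centring, scaling to hybridization controls, constants of 3.04 and 48.6, no filter or a filter at 71.8, the mean of probe sets, eBayes without trend, 2-stage fits, a replicate block, and leaving out each array.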

Additional observations from a re-analysis of the deposited data

Results flagged for a closer look

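Among 205 groups of 4 arrays of 1 factor at 1 stage, 14 held an array whose gap to the others, as a share of the group's range, exceeded Dixon's 95% critical value, and chance gives about 1 in 20. Arrays that stood above the other 3 of their stage were Gar1 on 1-cell array 2 (943.3, others up to 815), Nolc1 on oocyte array 4 (253.8, others up to 204) and on 8-cell array 4 (2786, others up to 1799.8), Heatr1 on oocyte array 2 (417, others up to 372), Utp18 on oocyte array 2 (781.9, others up to 651), Noc4l on 1-cell array 1 (478, others up to 389.7) and Nop2 on oocyte array 1 (55.6, others up to 11.9). Arrays that stood below were Nop56 on oocyte array 4 (176.1, others from 297), Ddx21 on blastocyst array 3 (246.9, others from 289), Wdr43 on blastocyst array 4 (420.6, others from 539), Utp3 on 1-cell array 4 (130.6, others from 180.0), Utp20 on 8-cell array 1 (160.1, others from 277), Bysl on 1-cell array 3 (38.3, others from 61.3) and Nip7 on 8-cell array 3 (835.9, others from 1182).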

How the results depend on the processing

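Of the 135 called changes of the factors, 128 kept direction and call under quantile normalization, 115 under centring on the array median, 82 when scaled to hybridization controls, 131 with the smaller and 134 with the larger added constant, 133 without a filter, 135 with the stricter filter, 120 with the mean of a gene's probe sets, 131 without the intensity trend, 131 with only the 2 stages compared and 134 with the replicate block. Leaving out 1 array kept 128 to 134.

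Counts moved by over 1.5 times mostly under the hybridization controls: 0 higher and 32 lower in 1-cell against oocyte, 1 lower in 2-cell against 1-cell, 5 higher and 5 lower in 8-cell against 2-cell, 12 higher and 3 lower in blastocyst against 8-cell, and 4 with the highest mean at the 8-cell stage. Of all 10251 genes that scaling called 10 higher and 6036 lower, then 1204 lower, 750 and 3593, and 5465 and 164, in that order. At the 8-cell stage 186 genes had their highest mean. Median centring gave 14 lower in blastocyst against 8-cell and 5 lower in blastocyst against oocyte. The count of 2 lower in 8-cell against 2-cell became 1 under quantile normalization, median centring, the smaller constant, the mean of probe sets, the 2-stage fit and the replicate block. It was also 1 without oocyte array 2, without any single 2-cell array, without 8-cell array 1 or 3, or without blastocyst array 1 or 2. Over all arrays left out it ran from 1 to 3.

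Changes that reversed, each without a call after reversal, were mostly those in blastocyst against 8-cell under the hybridization controls: Nop58 0.36, Nhp2 0.26, Gar1 0.29, Npm1 0.0232, Wdr75 0.53, Wdr36 0.10, Utp18 0.29, Utp3 0.53, Imp3 0.57, Rcl1 0.0946, Tsr1 0.51, Bop1 0.41, Rrs1 0.34, Nop2 0.12, Gnl2 0.44, Gnl3 0.15, Ppan 0.41, Nip7 0.11 and Rrp1 0.61. In 8-cell against 2-cell Nop10 gave -0.0316 and Rcl1 -0.14 under them, and Nop10 -0.0781 under quantile normalization. In 1-cell against oocyte Nop58 gave -0.12, Utp20 -0.51 and Pa2g4 -0.0715 under them. With the mean of probe sets Pa2g4 gave -0.0810 there and Wdr75 0.00919 in blastocyst against oocyte. The cause was not tested.

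With the replicate block the counts were 6 higher and 19 lower, 30 and 3, 22 and 1, 0 and 26, and 23 and 8 in the order of the comparisons, and 28 factors had their highest mean at the 8-cell stage. The arrays share only a number, so this was not a paired design. No detection calls were used here, so for dim genes such as Nop16, Nop2 and Wdr12 the direction is firmer than the size.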
